A study of Mus musculus with 12 samples.

Results

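CD8 T cells sorted from the brains of naive mice were compared with CD8 T cells sorted from naive mouse blood. Both are control groups of a mouse stroke study, whose other libraries come from brains 3 and 30 days after stroke. The comparison rests on 6 of the 12 libraries, 3 from naive brain and 3 from naive blood, and on the 18817 of 23937 listed genes that reached a value of at least 1 in at least 3 of those 6. It addresses how CD8 T cells found in an uninjured brain differ from those in circulation. The labels call the mice of both groups naive and give the cell type, isolated by fluorescence-activated sorting, and the tissue, but no genotype, strain, age or sex. The treatment protocol mentions only spleens, whereas titles and tissue entries name brain or blood, and the titles were followed. Whether the 3 samples of a group are from different mice is not stated, and the p-values then reflect only how much these samples vary, which may be technical variation.

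CD8 T cells recognise peptides on MHC class I molecules and kill the cells that show them. Naive CD8 cells recirculate between blood and lymph nodes under the control of CCR7 and the sphingosine phosphate receptor S1PR1. After an infection some memory cells stay in tissues, the brain among them, where they carry CXCR6 and CD69, keep granule and chemokine transcripts and often bear inhibitory receptors such as PD-1. The name naive here describes the mouse, not the T cell, and a CD8 sort from blood holds both naive and memory cells.

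RNA of the sorted cells was amplified with a low-input kit and sequenced. The libraries held 3469973, 14884783 and 21014171 reads in naive brain replicates 1 to 3, against 1445036, 1104490 and 2141262 reads in naive blood replicates 1 to 3. Values are CPM computed on a scaled library size (scaled CPM), in which a limit of 3 reads, the most that a count of 0 allows, equals 1.16, 0.323 and 0.298 in naive brain and 1.62, 1.65 and 1.06 in naive blood. That limit covers counting error only. The scaling multiplied unscaled CPM by 1.34 to 2.09 in naive brain and by 0.606 to 0.781 in naive blood. Receptor genes for odours, pheromones and tastes, taken as a measure of background, took 884, 198 and 165 unscaled CPM in naive brain and 3304, 5482 and 4665 unscaled CPM in naive blood. Depth, this background and the scaling all split the libraries by tissue, so their part in any difference below cannot be told apart from that of the tissue.

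Naive blood replicate 2 stood apart from the other 5 libraries in transcripts of neural cells. Snap25, which encodes a protein of synaptic vesicle release, measured 0.775, 3.01 and 0.199 scaled CPM in naive brain replicates 1 to 3 and 0, 199.7 and 7.74 in naive blood replicates 1 to 3. Aldoc, an astrocyte enzyme gene, gave 1.16, 1.40 and 0.596 in naive brain and 0, 149 and 6.69 in naive blood. These neural transcripts were higher in a library labelled blood than in any library labelled naive brain, and results that this library decides are given with and without it. Snap25 itself was not called (adjusted p = 0.22) except without naive blood replicate 1 (-4.36, adjusted p = 0.0486), and its difference was -0.53 without naive blood replicate 2.

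Of the 18817 genes, 2071 (11.0%) differed at a limma adjusted p under 0.05, 1830 of them (9.73%) higher and 241 (1.28%) lower in naive brain. The genes that were higher were measured well above the counting limit, with a median of the group means of 201 scaled CPM in naive brain against 22.8 in naive blood. Genes that were lower sat near it, with a median of 0.447 scaled CPM in naive brain against 17.2 in naive blood, and 96 of the 241 had at most 3 reads in every naive brain library. Only 16 of the 241 reached a mean of 100 scaled CPM in naive blood. Over all genes tested the median log2 difference, naive brain minus naive blood, was -0.24.

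The split into higher and lower depended on how the libraries were scaled. Without the deposited scaling factors 599 genes were higher and 1543 lower in naive brain, with median centring 2576 higher and 116 lower, and with quantile normalization 520 higher and 178 lower. Dividing each library by the geometric mean of its 6 CD3 and CD8 chain genes, a scaling chosen after the data were seen that expresses each gene per unit of T cell receptor transcript, gave 299 higher and 4910 lower. The median over all genes was -1.12, 0.14, -0.17 and -1.78 in these 4 scalings. Of the 1830 genes higher as deposited, 295 were called higher under all 5 scalings and 760 with each of the 6 libraries left out in turn, with 292 in both sets. Of the 241 lower, 29 were called lower under all 5 scalings and 10 with each library left out in turn. Without naive blood replicate 2, 1443 genes were higher and 77 lower. Below, a gene is said to have held where it was called in the same direction under all 5 scalings and with each of the 6 libraries left out in turn. The 3 other scalings, where a count over a gene list is given for them, are unscaled CPM, quantile normalization and CD3 and CD8 scaling in that order, and a gene that was not called as deposited is also described under a scaling where it was called. Each count over a gene list is to be read against the count over all genes under the same scaling, given above. Counts over a gene list are over its tested members, which are all members except in the lists of T cell receptor genes (17 of 20), residency genes (19 of 20), natural killer lectins (13 of 14), inhibitory receptors (16 of 18), cytokines and chemokines (19 of 21), chemokine receptors (15 of 16) and some markers of other cell types.

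**Figure D1:**
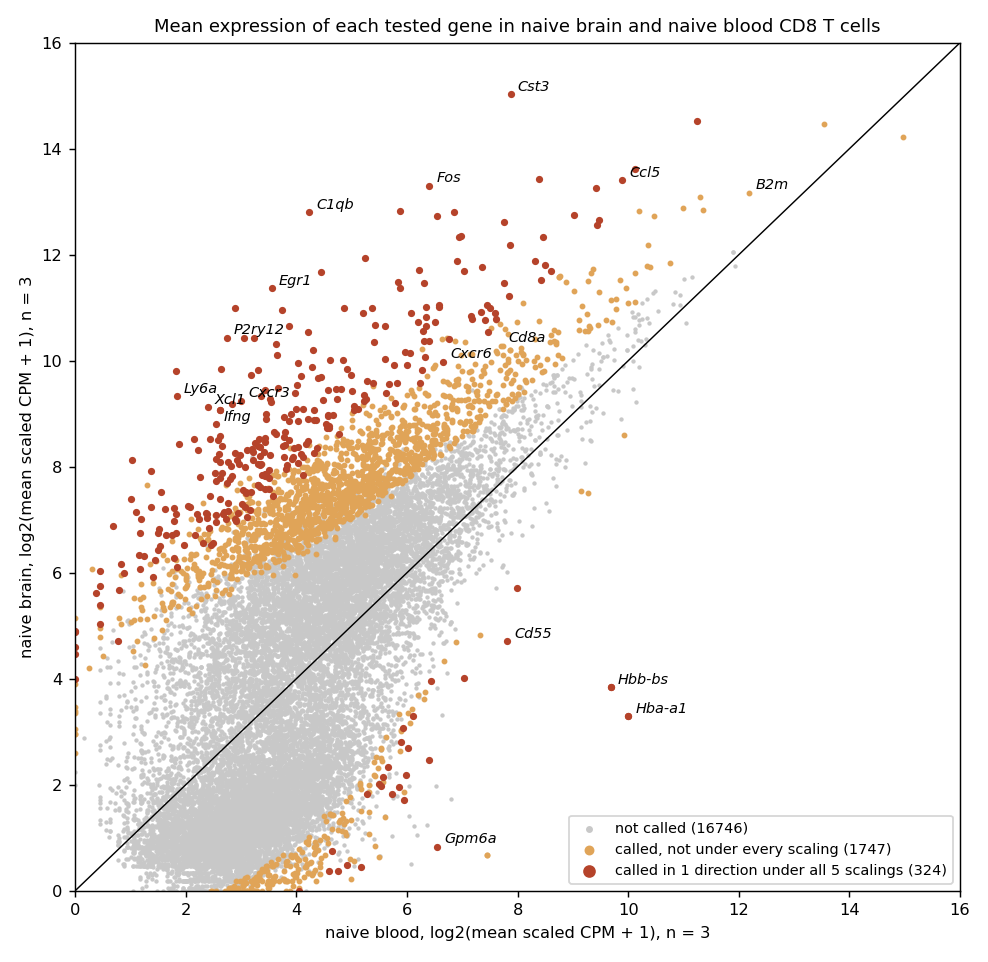
Each point is 1 of the 18817 genes tested, with its mean in naive brain on the vertical axis and its mean in naive blood on the horizontal axis, both as log2(mean scaled CPM + 1) over 3 libraries. Points above the line are higher in naive brain. Dark red marks the 295 higher and 29 lower genes called under all 5 scalings, and the labelled genes far above the line are microglial (C1qb, P2ry12, Cst3), immediate early (Fos, Egr1) and T cell (Xcl1, Cxcr3, Ifng, Ccl5) genes.

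**Figure D2:**
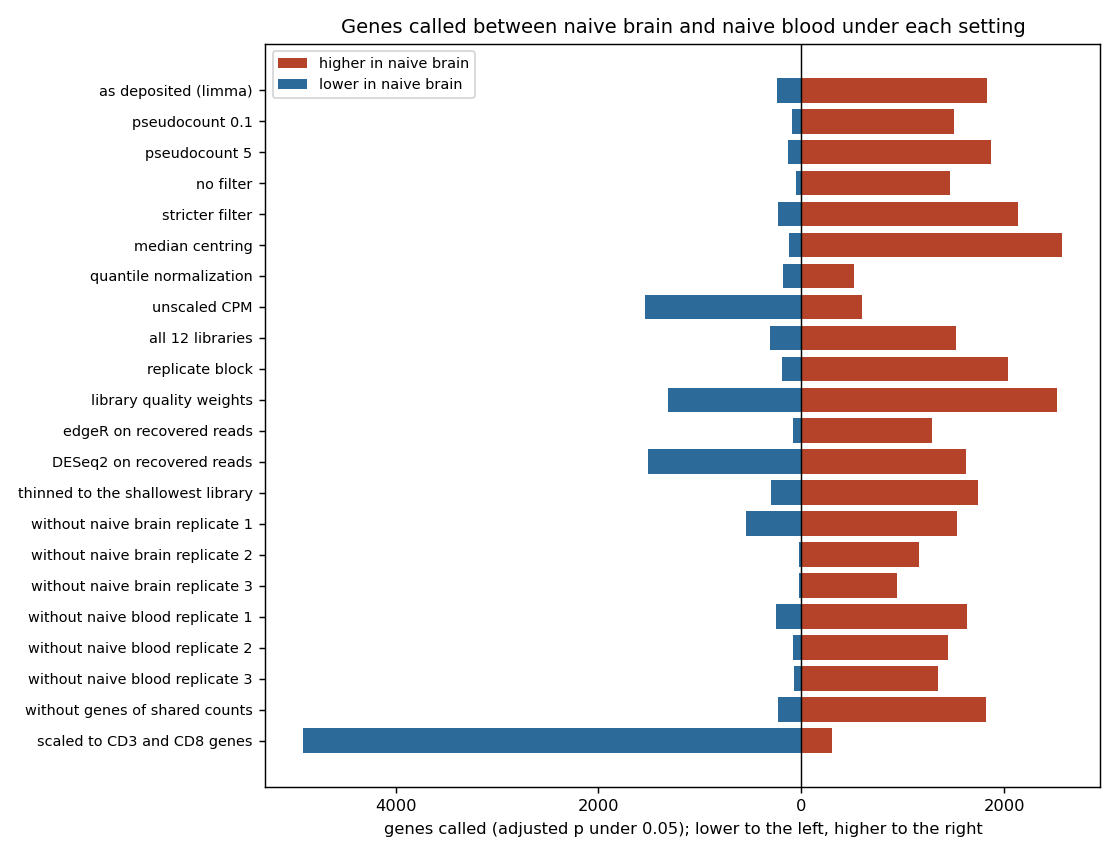
Bars give the number of genes called at an adjusted p under 0.05 under each setting, higher in naive brain to the right and lower to the left. The deposited scaling gave 1830 higher and 241 lower, while unscaled CPM gave 599 and 1543 and scaling to the CD3 and CD8 genes 299 and 4910.

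The sorted cell type was present in both tissues. Cd8a, which encodes the alpha chain of CD8, measured 797, 1571 and 1358 scaled CPM in naive brain and 172, 216 and 237 in naive blood, and Cd8b1, which encodes the beta chain, 1803, 2137 and 2349 in naive brain and 725, 382 and 608 in naive blood. Cd3e, a signalling chain of the T cell receptor complex, measured 746, 1784 and 1544 in naive brain and 60.0, 28 and 233 in naive blood, while its partner Cd3d measured 1041, 1097 and 1758 in naive brain and 1040.4, 430.1 and 977 in naive blood. All 3 naive brain libraries lay above all 3 naive blood libraries for each of these genes, by a wide margin for Cd3e (log2 difference 4.09 ± 0.60, SE, limma adjusted p = 9.68e-05) and by a narrow one for Cd3d (0.73 ± 0.38, adjusted p = 0.192). Without naive blood replicate 2 the Cd3d difference was 0.32, and it turned to -0.48 with unscaled CPM, -0.87 with quantile normalization and -1.37 with CD3 and CD8 scaling, the last of these called (adjusted p = 0.0161). Cd4, which marks helper T cells, stayed at 5.42, 2.05 and 7.94 scaled CPM in naive brain and 3.24, 6.03 and 5.28 in naive blood. In bulk samples such as these, fewer cells of a type and less RNA per cell cannot be told apart.

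Of 17 T cell receptor and co-receptor genes, 11 were higher and 0 lower in naive brain, with a median log2 difference of 1.91 that became -0.19 when scaled to the CD3 and CD8 genes, a scaling that uses 6 of them. Under the 3 other scalings 5, 4 and 2 were higher and 0, 0 and 3 lower. Lck, a kinase acting first after antigen binding, rose to 1019, 2345 and 2450.3 scaled CPM in naive brain, against 117, 141 and 223 in naive blood (3.54 ± 0.43, adjusted p = 9.24e-06), and held. Its lowest naive brain library lay well above its highest naive blood library. Cd2, an adhesion receptor that aids contact with the target cell, differed by 2.96 ± 0.46 and Lcp2, an adaptor of the receptor's signal, by 3.27 ± 0.59 (adjusted p = 0.0002 and 0.000965), and neither was called when scaled to the CD3 and CD8 genes. Thy1 differed by 2.14 ± 0.49, and Cd8a and Cd8b1 by 2.53 ± 0.41 and 1.91 ± 0.34 (adjusted p = 0.00701, 0.000277 and 0.000748). None of these 3 was called with quantile normalization or CD3 and CD8 scaling, in which Cd8b1 turned to -0.18, and Thy1 and Cd8b1 were also not called with unscaled CPM.

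Genes of naive and recirculating T cells had the lowest median of all lists other than markers of other cell types. Of 20 such genes 3 were higher and 3 lower, with a median of 0.41 that turned to -0.80 with unscaled CPM, -0.98 with quantile normalization and -1.68 when scaled to the CD3 and CD8 genes. The calls tipped to the lower side under the 3 other scalings, with 1, 1 and 0 higher and 6, 5 and 11 lower. S1pr1, whose receptor lets T cells leave tissues for blood and lymph, overlapped between the groups, with 163, 314 and 252 scaled CPM in naive brain and 274, 173 and 206 in naive blood (adjusted p = 0.866). When scaled to the CD3 and CD8 genes S1pr1 was lower in naive brain, with a log2 difference of -1.96 (adjusted p = 0.0173). Ccr7, the receptor for lymph node chemokines, measured 251, 635 and 1236 in naive brain and 353, 179 and 277 in naive blood (1.16 ± 0.51, adjusted p = 0.133). Ccr7 was called without naive brain replicate 1 (1.77, adjusted p = 0.0449), and its difference was -0.94 with CD3 and CD8 scaling, where it did not pass.

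The lower members were Cd55, Dapl1 and Satb1. Cd55, which encodes an inhibitor of complement on the cell surface, fell to 48.8, 24.1 and 2.28 scaled CPM in naive brain, against 377, 141 and 150.3 in naive blood (-3.65 ± 0.87, adjusted p = 0.00851). No naive brain library reached the lowest naive blood library, and Cd55 held. Dapl1, a transcript of naive CD8 cells, measured 325, 96.9 and 118 in naive brain and 937, 315 and 606 in naive blood (-1.86 ± 0.53, adjusted p = 0.028), and its highest naive brain library lay above the lowest naive blood library. Satb1, a chromatin organiser of developing T cells, measured 235, 137 and 182 in naive brain and 629, 484 and 589.9 in naive blood (-1.64 ± 0.44, adjusted p = 0.0199). Neither Dapl1 nor Satb1 was called with median centring or without naive brain replicate 2 or 3 or naive blood replicate 1 or 3, and leaving out any of those 4 libraries reduced the count of lower members to 1. Lef1 and Tcf7, transcription factors of naive and long-lived memory cells, did not pass as deposited (adjusted p = 0.109 and 0.496), with Lef1 at 198, 241 and 362 in naive brain and 885, 358 and 546 in naive blood (-1.11 ± 0.45). Lef1 was called lower with unscaled CPM (-2.32, adjusted p = 0.00167), quantile normalization (-2.52, adjusted p = 0.00031) and CD3 and CD8 scaling (-3.20, adjusted p = 0.000463), and without naive blood replicate 2 (adjusted p = 0.0485). Tcf7 was called lower with CD3 and CD8 scaling (-1.68, adjusted p = 0.0183).

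The higher members were Klf2, Klf3 and Gpr183. Klf2, the transcription factor that drives S1pr1, measured 727, 1474 and 2781 in naive brain and 272, 79 and 265 in naive blood (3.0 ± 0.51, adjusted p = 0.00055), a call lost when scaled to the CD3 and CD8 genes. Its lowest naive brain library exceeded its highest naive blood library. Klf3 (1.96 ± 0.59, adjusted p = 0.0362) and Gpr183, an oxysterol receptor (1.88 ± 0.56, adjusted p = 0.0344), were not called with unscaled CPM or quantile normalization, and turned to -0.12 and -0.21 with CD3 and CD8 scaling. Neither was called without naive brain replicate 2 or 3 or naive blood replicate 2, and leaving out any of those 3 libraries reduced the count of higher members to 1. Gpr183 also missed without naive brain replicate 1, and its difference was 1.14 without naive blood replicate 2.

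Of 19 genes of tissue-resident memory T cells, 8 were higher and 0 lower in naive brain, with a median of 1.54 that became -0.39 when scaled to the CD3 and CD8 genes. Under the 3 other scalings 6 were higher each time and 1, 0 and 2 lower. Cxcr6, a chemokine receptor that keeps CD8 cells in tissues, rose to 652, 1395 and 989.9 scaled CPM in naive brain, against 196, 35.7 and 68.6 in naive blood (3.60 ± 0.56, adjusted p = 0.000178), and held. No library of one tissue reached the range of the other, and naive blood replicate 1 was the highest of its group. Rgs1 and Rgs2, which dampen chemokine receptor signalling, differed by 3.71 ± 0.43 and 4.29 ± 0.51 (adjusted p = 4.48e-06 and 6.94e-06), and Rgs1 measured 1265, 1754 and 2466 in naive brain and 84.4, 155 and 185 in naive blood. Bhlhe40, a transcription factor that sustains resident cells, rose to 303, 692 and 1244 in naive brain, against 3.79, 28 and 13.7 in naive blood (5.66 ± 0.73, adjusted p = 1.82e-05). Litaf rose by 5.08 ± 0.96 (adjusted p = 0.00143), and Rgs1, Rgs2, Bhlhe40 and Litaf all held. Microglia and other myeloid cells also express these 4 genes, and microglial marker genes made up 2.24% to 5.32% of the reads in naive brain against 0.0732% to 0.109% in naive blood. The part of such cells in these differences, or in that of any other gene reported here, was not tested.

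Other residency genes gave smaller or opposite differences. Itgae, which encodes the CD103 integrin chain that binds epithelial cadherin, measured 12, 40.6 and 14.1 scaled CPM in naive brain and 54.1, 90.0 and 48.2 in naive blood, so every naive brain library lay below every naive blood library, without passing the test (-1.64 ± 0.81, adjusted p = 0.174). It was called lower with unscaled CPM (-2.80, adjusted p = 0.0401) and with CD3 and CD8 scaling (-3.65, adjusted p = 0.016). Cd69, whose protein blocks tissue exit by pulling S1PR1 inside the cell, measured 742, 1067 and 572 in naive brain and 451, 112 and 279 in naive blood (1.66 ± 0.48, adjusted p = 0.0298). Its call was lost with unscaled CPM and quantile normalization and without naive brain replicate 1 or 2 or naive blood replicate 2 or 3, and its sign turned to -0.43 when scaled to the CD3 and CD8 genes. Runx3, a factor of CD8 identity and residency, differed by 2.59 ± 0.59 (adjusted p = 0.00662) and was called with each library left out, but of the 5 scalings as deposited and with median centring alone.

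Of 21 cytotoxic genes 11 were higher and 0 lower in naive brain, with a median of 2.33 that stayed above 0 under all 5 scalings (0.49 when scaled to the CD3 and CD8 genes). The counts were smaller under the 3 other scalings, with 6, 5 and 4 higher and 0, 1 and 1 lower. Ccl5, a chemokine stored by memory and effector CD8 cells, measured 12334, 8289 and 11847 scaled CPM in naive brain and 728, 661 and 1458 in naive blood (3.58 ± 0.29, adjusted p = 5.14e-08). Gzmk, a granule protease of memory CD8 cells, rose to 354, 236 and 452 in naive brain, against 0, 21.9 and 3.52 in naive blood (6.16 ± 0.94, adjusted p = 0.000159), and naive blood replicate 1 held no read of it. Ifng, the gene of interferon gamma, rose to 503, 363 and 468 in naive brain, against 9.19, 4.39 and 1.06 in naive blood (6.51 ± 0.77, adjusted p = 6.8e-06), and Ctsw, a cathepsin of killer cells, differed by 4.99 ± 0.55 (adjusted p = 2.48e-06). Ccl5, Gzmk, Ifng and Ctsw held.

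The classical killing genes gave less even values. Gzmb, the granule protease of active killers, measured 176, 373 and 767 in naive brain and 1.62, 60.3 and 114 in naive blood (3.81 ± 0.97, adjusted p = 0.0138), a difference of 2.14 without naive blood replicate 1, and its call was lost without naive brain replicate 1 and with unscaled CPM, quantile normalization and CD3 and CD8 scaling. Prf1, the pore-forming protein perforin, overlapped between the groups, with 48, 199 and 6.06 in naive brain and 3.79, 18.7 and 5.98 in naive blood (2.24 ± 1.12, adjusted p = 0.179), and was called without naive brain replicate 3 (3.51, adjusted p = 0.0409). Gzma, another granule protease, ranged widely, with 26, 291 and 1778 in naive brain and 37.3, 80.1 and 313 in naive blood (adjusted p = 0.374). Nkg7, a granule membrane protein, was abundant in both tissues, with 6775, 5945 and 7547 in naive brain and 1748, 852 and 1646 in naive blood (2.32 ± 0.28, adjusted p = 8.91e-06), and was not called with quantile normalization or CD3 and CD8 scaling.

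**Figure D3:**
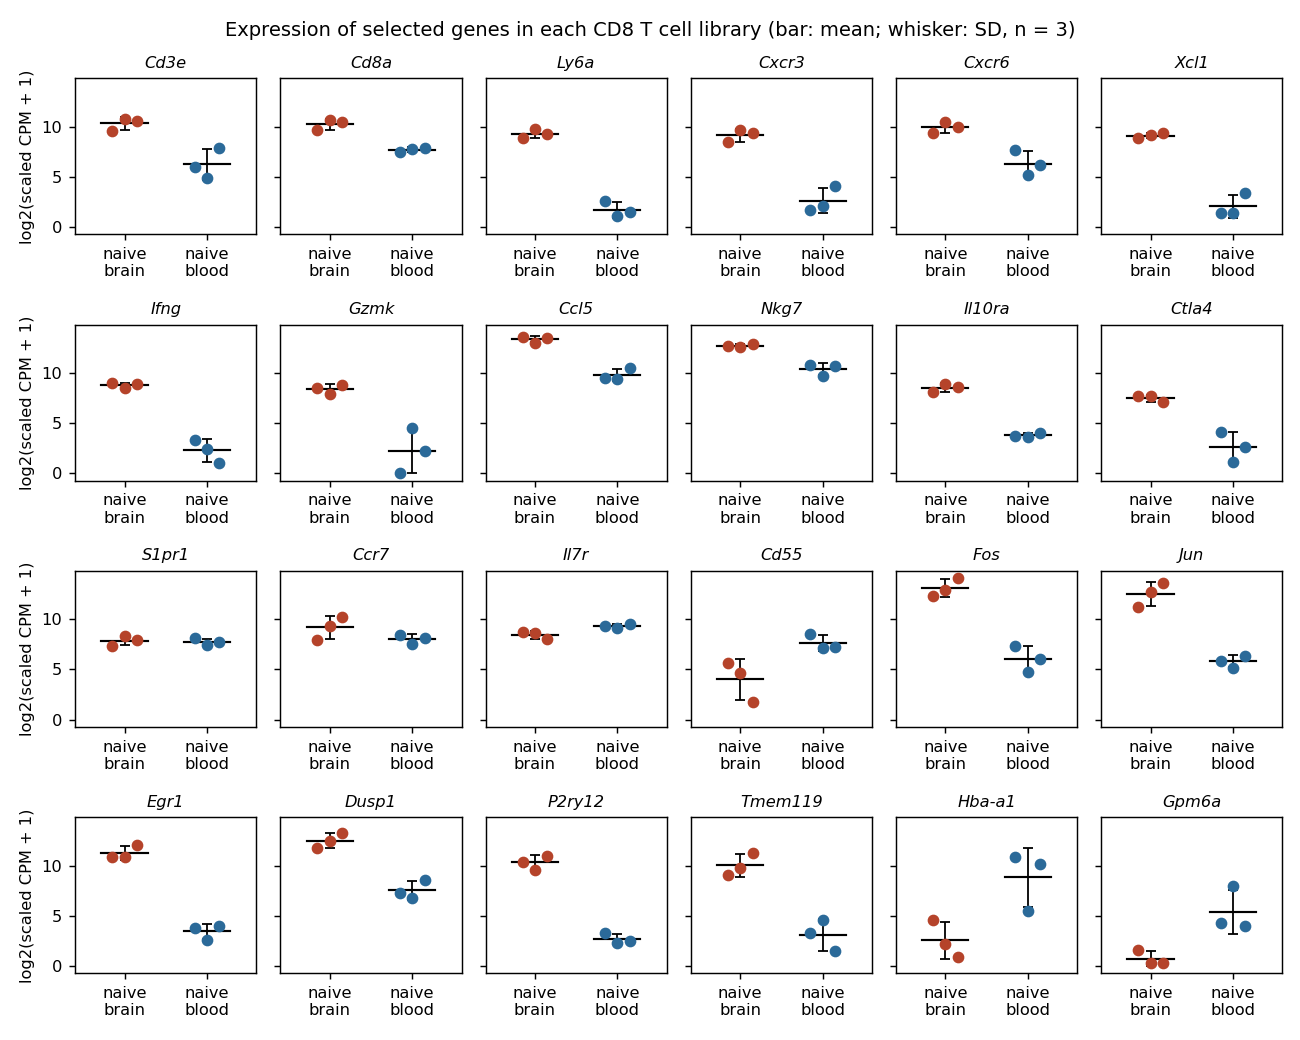
Each panel shows 1 gene as log2(scaled CPM + 1), with naive brain libraries in red on the left and naive blood libraries in blue on the right, a bar at the mean and a whisker for the SD (n = 3). Ly6a, Cxcr3, Xcl1, Ifng, Fos, Jun and Egr1 show wide gaps between the groups, S1pr1 and Ccr7 overlap, and Cd55 and Hba-a1 are lower in naive brain. Gpm6a is highest in naive blood replicate 2, the library with neural transcripts.

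Of 19 cytokine and chemokine genes that T cells make, 10 were higher and 0 lower (median 2.95, 0.86 when scaled to the CD3 and CD8 genes), or 7, 6 and 6 higher and 1, 0 and 2 lower under the 3 other scalings. Xcl1, whose product draws cross-presenting dendritic cells, rose to 459.5, 558 and 646 scaled CPM in naive brain, against 1.62, 1.65 and 9.50 in naive blood (7.04 ± 0.77, adjusted p = 2.12e-06). It lies on chromosome 1 at 164931644 to 164935527 of GRCm38 and overlaps the predicted gene Gm20743 on the other strand. Ccl3 and Ccl4, inflammatory chemokines, differed by 5.22 ± 0.82 and 5.57 ± 0.49 (adjusted p = 0.000216 and 1.06e-07), with Ccl4 at 3672, 1747 and 4649 in naive brain and 128, 36.8 and 56.7 in naive blood. Ltb, which encodes lymphotoxin beta, measured 629.6, 694 and 682 in naive brain and 39.5, 68 and 37 in naive blood (3.82 ± 0.51, adjusted p = 3.42e-05), with little spread among the naive brain libraries. Xcl1, Ccl3, Ccl4 and Ltb held. Tnf measured 5.81, 173 and 295 in naive brain and 7.03, 3.84 and 1.06 in naive blood, so its call (4.03 ± 1.21, adjusted p = 0.035) came with overlapping groups and was lost with unscaled CPM, quantile normalization and CD3 and CD8 scaling and without naive brain replicate 2 or 3 or naive blood replicate 2 or 3. Tgfb1 differed by 3.77 ± 0.94 (adjusted p = 0.0124), a call lost under the same 3 scalings and without naive brain replicate 3. Microglia also make Ccl3, Ccl4 and Tnf, and the microglial share of reads given above applies to them.

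Of 16 inhibitory receptor and exhaustion genes 9 were higher and 0 lower, with a median of 3.59 (1.66 when scaled to the CD3 and CD8 genes), or 5, 5 and 4 higher and 0, 0 and 1 lower under the 3 other scalings. Such receptors restrain T cells. Pdcd1, the PD-1 gene, measured 29.1, 494 and 158 scaled CPM in naive brain and 0, 3.29 and 15.1 in naive blood (5.02 ± 1.11, adjusted p = 0.00512), with a wide spread among the naive brain libraries. Tigit, a receptor that competes for the ligands of CD226, was even, with 148, 136 and 127 in naive brain and 0, 7.68 and 8.45 in naive blood (4.99 ± 0.96, adjusted p = 0.00169). Ctla4, a brake on co-stimulation, measured 206, 205 and 133 in naive brain and 16.2, 1.10 and 5.28 in naive blood (4.87 ± 0.87, adjusted p = 0.000878). Entpd1, the ectonucleotidase CD39, differed by 5.16 ± 0.91 (adjusted p = 0.000777), and these 4 genes held. Havcr2, the gene of TIM-3, differed by 4.25 ± 0.89 (adjusted p = 0.00327) and was not called when scaled to the CD3 and CD8 genes. Cd160 differed by 4.41 ± 1.10 (adjusted p = 0.0125), by 2.93 without naive blood replicate 1, and its call was lost without naive brain replicate 1 and with unscaled CPM, quantile normalization and CD3 and CD8 scaling. Tox, a factor of chronically stimulated cells, measured 94.5, 110.5 and 98.4 in naive brain and 39.5, 41.1 and 41.2 in naive blood and did not pass (1.29 ± 0.65, adjusted p = 0.183). Entpd1 and Havcr2 are also microglial genes, and the microglial share given above applies to them.

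Among 13 natural killer lectin receptor genes, which memory CD8 cells share with natural killer cells, 3 were higher and 0 lower, a count of 0 without naive brain replicate 3 and of 1 without naive blood replicate 2. Their median of 0.84 turned to -0.06 with unscaled CPM and -0.49 when scaled to the CD3 and CD8 genes, and under the 3 other scalings 0 were higher and 1, 1 and 2 lower. Klrk1, the activating receptor NKG2D, measured 272, 342 and 499 in naive brain and 89.8, 41.1 and 89.8 in naive blood (2.36 ± 0.55, adjusted p = 0.00735), and Klrc1, the inhibitory receptor NKG2A, 191, 123 and 282 in naive brain and 49.7, 6.03 and 41.9 in naive blood (2.93 ± 0.77, adjusted p = 0.017). Both calls were lost with unscaled CPM, quantile normalization and CD3 and CD8 scaling and without naive brain replicate 3. Klrc1 was also lost without naive brain replicate 1 (adjusted p = 0.0679) and without naive blood replicate 2 (2.02, adjusted p = 0.0618). Klrd1, the CD94 partner of NKG2A, overlapped, with 425, 364 and 308 in naive brain and 764, 358 and 594 in naive blood (-0.59 ± 0.42, adjusted p = 0.334). It was called lower with unscaled CPM (-1.80, adjusted p = 0.0135), quantile normalization (-2.06, adjusted p = 0.0019) and CD3 and CD8 scaling (-2.69, adjusted p = 0.00234).

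Called chemokine receptor genes had large differences. Of 15 chemokine and sphingosine phosphate receptor genes, 4 were higher and 0 lower, among them Cxcr6, Cxcr3 and Cx3cr1, which held, although the list's median of 1.97 became -0.03 when scaled to the CD3 and CD8 genes, under which 1 gene was lower. Cxcr3, the receptor for interferon-induced chemokines, rose to 341, 799.7 and 679 scaled CPM in naive brain, against 2.16, 3.29 and 15.5 in naive blood (6.56 ± 0.76, adjusted p = 4.56e-06), and lies on chromosome X at 101731535 to 101734269. Cx3cr1, shared by microglia and effector T cells, measured 764, 1693 and 3492 in naive brain and 4.33, 15.4 and 17.2 in naive blood (7.15 ± 0.65, adjusted p = 1.52e-07). In scaled CPM it was highest in naive brain replicate 3, as were the microglial genes P2ry12, Tmem119 and C1qb. That library also had the largest scaling factor (2.09), and without the scaling P2ry12 was not highest there.

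Of 20 cytokine receptor genes 9 were higher and 0 lower, or 5 higher without naive brain replicate 2, with a median of 1.79 that turned to -0.30 when scaled to the CD3 and CD8 genes. The 3 other scalings gave 3, 3 and 2 higher and 2, 1 and 3 lower. Il10ra, which receives the inhibitory cytokine interleukin 10, was tight in both groups, with 268, 487 and 378 in naive brain and 12.4, 11.0 and 14.8 in naive blood (4.75 ± 0.65, adjusted p = 4.2e-05). Il21r, the interleukin 21 receptor, differed by 4.08 ± 0.64 (adjusted p = 0.000235), and both genes held. Il2rb, the chain that carries interleukin 15 signals to memory CD8 cells, measured 156, 679 and 569 in naive brain and 29.7, 26.3 and 37 in naive blood (3.63 ± 0.64, adjusted p = 0.000701), and was not called when scaled to the CD3 and CD8 genes. Il2rg, the shared chain, differed by 1.74 ± 0.39 (adjusted p = 0.00527), was not called with unscaled CPM, quantile normalization or without naive brain replicate 2, and turned to -0.36 with CD3 and CD8 scaling. Il7r, which sustains naive and memory cells, measured 429, 390.1 and 259 in naive brain and 645, 563 and 716 in naive blood, every naive brain library below every naive blood library without passing the test as deposited (-0.86 ± 0.40, adjusted p = 0.151). It was called lower with unscaled CPM (-2.08, adjusted p = 0.00516), quantile normalization (-2.30, adjusted p = 0.00119) and CD3 and CD8 scaling (-2.96, adjusted p = 0.00151).

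Of 19 integrin and adhesion genes 11 were higher and 0 lower (median 2.45, 0.54 when scaled to the CD3 and CD8 genes), or 8, 6 and 3 higher and 1, 0 and 4 lower under the 3 other scalings. Ly6a, the gene of Sca-1 that marks memory T cells in mice, measured 451, 865 and 614 scaled CPM in naive brain and 4.87, 1.10 and 1.76 in naive blood (7.59 ± 0.76, adjusted p = 6.43e-07). It lies on chromosome 15 at 74994877 to 74998031. Selplg, the P-selectin ligand, rose by 5.22 ± 0.42 and Icam1, a ligand of the integrin LFA-1, by 4.52 ± 0.68 (adjusted p = 3.81e-08 and 0.000129), and all 3 genes held. Itgb1 and Itgb7, integrin beta chains that pair with the alpha 4 chain, differed by 3.31 ± 0.52 and 3.20 ± 0.57 (adjusted p = 0.000239 and 0.00085), and neither was called when scaled to the CD3 and CD8 genes. Itga4, the alpha 4 chain through which T cells enter the brain, measured 400.2, 578 and 388 in naive brain and 252, 197 and 339.7 in naive blood and did not pass (0.80 ± 0.44, adjusted p = 0.215), and was called lower with CD3 and CD8 scaling (-1.29, adjusted p = 0.0376). Microglia also express Selplg, which measured 2429.8, 4349 and 8694 in naive brain and 105, 119 and 139.7 in naive blood, and the microglial share of reads given above applies to it.

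Immediate early genes, which cells switch on within minutes of a signal through kinases that act on CREB and serum response factor, were higher in naive brain together with their feedback inhibitors. The promoters of 4 of the higher genes are shown because each holds a match to the site of 1 of those factors. They are the 250 bases before the start in RefSeq of GRCm38.p6, read along the gene's strand with the match in capitals. The match is the CREB palindrome TGACGTCA in the first 3 and the serum response factor site, the CArG box, in the last. Dusp1 lies at chr17:26508473-26508722, Btg2 at chr1:134079156-134079405, Ppp1r15a at chr7:45526269-45526518 and Zfp36 at chr7:28379229-28379478, all on the minus strand.
Dusp1: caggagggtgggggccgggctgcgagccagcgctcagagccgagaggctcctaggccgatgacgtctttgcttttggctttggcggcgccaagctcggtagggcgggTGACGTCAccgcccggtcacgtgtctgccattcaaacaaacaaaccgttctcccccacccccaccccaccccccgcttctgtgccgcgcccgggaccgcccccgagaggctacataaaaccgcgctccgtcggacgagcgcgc
Btg2: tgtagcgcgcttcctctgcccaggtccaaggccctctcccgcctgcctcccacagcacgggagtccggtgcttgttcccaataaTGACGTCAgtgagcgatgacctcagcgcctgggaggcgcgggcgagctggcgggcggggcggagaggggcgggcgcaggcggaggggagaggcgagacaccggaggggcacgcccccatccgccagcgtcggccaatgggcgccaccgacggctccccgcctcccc
Ppp1r15a: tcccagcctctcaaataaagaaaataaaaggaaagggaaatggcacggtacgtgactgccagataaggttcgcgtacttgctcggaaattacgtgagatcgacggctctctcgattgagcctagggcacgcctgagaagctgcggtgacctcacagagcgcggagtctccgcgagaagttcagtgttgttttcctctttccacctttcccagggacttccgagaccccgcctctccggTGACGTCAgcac
Zfp36: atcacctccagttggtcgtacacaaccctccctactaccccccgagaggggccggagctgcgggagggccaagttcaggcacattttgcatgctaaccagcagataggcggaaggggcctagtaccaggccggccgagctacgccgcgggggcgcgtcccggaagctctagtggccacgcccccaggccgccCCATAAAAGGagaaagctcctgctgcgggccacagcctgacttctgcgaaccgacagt
Counted on both strands, TGACGTCA stood in 5 of 47 promoters (10.6%) of the AP-1, Egr and Nr4a, and feedback inhibitor genes, of which 38 of 46 had a promoter in the table, against 508 of 32851 promoters (1.55%) of all genes. The CArG box stood in 6 of 47 (12.8%), all from Dusp5, Egr2 and Zfp36, against 1.47% of all promoters. The AP-1 site TGANTCA stood in 6.38% of them and in 6.75% of all promoters. A stretch that matches TGACGTCA does not itself match TGANTCA. The counts cover all members of these lists whether or not they were called, and Egr2 was not called. Several promoters of the same gene count separately. These counts describe letters in a window and no binding was measured. Whether these sites play a part in the differences reported here was not tested.

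Of 12 AP-1 subunit genes 7 were higher and 0 lower, with a median of 3.82 (2.07 when scaled to the CD3 and CD8 genes), and 6 were higher and 0 lower under each of the 3 other scalings. Fos, the labile AP-1 subunit, rose to 4989, 7851 and 17498 scaled CPM in naive brain, against 158, 26.3 and 66.5 in naive blood (7.05 ± 0.52, adjusted p = 1.08e-08). It lies on chromosome 12 at 85473890 to 85477273. Jun, its partner, rose to 2443, 6906 and 12283 in naive brain, against 56.2, 35.1 and 81.7 in naive blood (6.74 ± 0.49, adjusted p = 1.08e-08). For both genes the naive blood libraries lay far below the lowest naive brain library. Atf3, a stress-induced member, rose by 6.69 ± 0.60, Fosb by 5.56 ± 0.62, Junb by 5.17 ± 0.47 and Jund by 4.97 ± 0.56 (adjusted p from 1.28e-07 to 3.6e-06). All 6 of these genes held.

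Of 16 Egr, Nr4a and other immediate early genes 12 were higher and 0 lower (median 3.80, 1.74 when scaled to the CD3 and CD8 genes), or 8, 8 and 6 higher and 0, 0 and 2 lower under the 3 other scalings. Egr1, a zinc finger factor of antigen and growth signals, rose to 1846, 1863 and 4202 scaled CPM in naive brain, against 12.4, 4.94 and 14.8 in naive blood (7.82 ± 0.57, adjusted p = 1.08e-08). Nr4a1, which reports recent T cell receptor engagement, measured 25.6, 137 and 91.8 in naive brain and 0, 7.68 and 10.9 in naive blood (3.90 ± 1.08, adjusted p = 0.0243). Its call was lost with unscaled CPM, quantile normalization and CD3 and CD8 scaling and without naive brain replicate 2 or 3 or naive blood replicate 1. Egr2, another gene induced by the receptor, measured 19, 41.9 and 44.3 in naive brain and 9.73, 18.7 and 7.04 in naive blood and did not pass (adjusted p = 0.265). Ppp1r15a, which restores translation after stress, rose by 5.53 ± 0.57, the growth inhibitor gene Btg2 by 4.58 ± 0.45, Gadd45b by 5.60 ± 0.94 and Ier3 by 5.57 ± 0.90 (adjusted p from 4.75e-07 to 0.000454). Egr1, Ppp1r15a, Btg2, Gadd45b and Ier3 held.

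Of 18 feedback inhibitors of MAP kinase and NF-kB signalling 15 were higher and 0 lower, with a median of 3.99 (2.0 when scaled to the CD3 and CD8 genes), or 9, 11 and 8 higher and 0 lower under the 3 other scalings. Dusp1, a phosphatase that switches off MAP kinases, measured 3429, 5596 and 9744 scaled CPM in naive brain and 149, 111 and 381 in naive blood (4.94 ± 0.43, adjusted p = 1.06e-07). Zfp36, which destabilises cytokine transcripts, measured 1476, 2344 and 4103 in naive brain and 80.6, 34 and 58.1 in naive blood (5.45 ± 0.48, adjusted p = 1.06e-07). Nfkbia, the inhibitor of NF-kB, differed by 3.67 ± 0.45, and the cytokine signal suppressors Socs1 and Socs3 by 5.93 ± 0.94 and 5.48 ± 0.77 (adjusted p = 9.72e-06, 0.000254 and 6.38e-05). These 5 genes held. Tnfaip3, the A20 deubiquitinase that restrains NF-kB, was the exception, abundant in both tissues with 721, 1448 and 1764 in naive brain and 318, 293 and 628 in naive blood (1.66 ± 0.42, adjusted p = 0.0128). Its difference turned to -0.44 when scaled to the CD3 and CD8 genes, and its call was lost with unscaled CPM and quantile normalization and without naive brain replicate 2 or 3.

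Of 15 heat shock and chaperone genes 9 were higher and 0 lower, with a median of 2.39 (0.33 when scaled to the CD3 and CD8 genes), or 6, 4 and 3 higher and 0, 0 and 1 lower under the 3 other scalings. Hspa1a, the inducible HSP70, measured 31, 145 and 774 in naive brain and 0, 8.23 and 2.82 in naive blood (5.55 ± 1.11, adjusted p = 0.00234), and held. Hspa1b, its near-identical neighbour, measured 1.55, 71.6 and 801 in naive brain and 5.41, 5.49 and 13.7 in naive blood and did not pass (adjusted p = 0.192) except without naive brain replicate 1 (4.83, adjusted p = 0.0286), and reads of the pair may have been split unevenly. Hspb1 measured 16.3, 25.6 and 563 in naive brain and 1.62, 2.74 and 0 in naive blood (4.90 ± 1.25, adjusted p = 0.014), with its level in naive brain set by replicate 3, and its call was lost without that library, without naive blood replicate 3 and with CD3 and CD8 scaling. Hsp90ab1, a constitutive chaperone, rose by 3.57 ± 0.48 (adjusted p = 3.78e-05) and held, and Dnajb1, a co-chaperone, rose by 5.08 ± 1.02 (adjusted p = 0.00239) as deposited but was not called with quantile normalization or CD3 and CD8 scaling. Naive brain replicate 3 had the highest scaled CPM of Fos, Jun, Egr1, Dusp1, Hspa1a and Dnajb1. Its scaled CPM was also highest for the microglial genes P2ry12, Tmem119 and C1qb and the T cell genes Lck, Cd8b1 and Cd3d. Cd8a and Cd3e were highest in naive brain replicate 2. These ranks carry the scaling factor, which was largest (2.09) in naive brain replicate 3. Without the scaling, Lck, Cd8b1 and P2ry12 were not highest in that library. The shares of reads that follow do not carry the scaling. The microglial list made up 3.77%, 2.24% and 5.32% of the reads in naive brain replicates 1 to 3. The AP-1 list made up 0.89%, 1.56% and 2.13% of them. Microglia can express these immediate early and heat shock genes as well, and the part of their reads in these differences was not tested.

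Of 21 transcription factors of T cell fate 2 were higher and 0 lower, a share near the 9.73% of all tested genes that were higher. Their median of 1.29 turned to -0.78 when scaled to the CD3 and CD8 genes. The count of higher members was 4 without naive brain replicate 1, and under the 3 other scalings 1 was higher each time and 1, 1 and 3 lower. Id2, which favours effector and resident fates, rose to 1190.3, 1986 and 2083 scaled CPM in naive brain, against 233, 172 and 101 in naive blood (3.41 ± 0.42, adjusted p = 1.06e-05), and held, and the other was Runx3. Tbx21, the gene of T-bet, overlapped, with 9.69, 181 and 129.8 in naive brain and 9.73, 14.3 and 8.10 in naive blood (2.47 ± 1.0, adjusted p = 0.105), and was called without naive brain replicate 1 (3.76, adjusted p = 0.0204). Eomes, its relative in memory cells, measured 86, 97.2 and 133 in naive brain and 9.19, 25.8 and 62.7 in naive blood, without overlap and without passing the test (2.02 ± 0.77, adjusted p = 0.0897), although it was called with median centring (adjusted p = 0.0425). Of 14 costimulatory receptor genes 4 were higher and 0 lower, or 2 without naive brain replicate 1, with a median of 0.62 that turned to -0.57 with unscaled CPM and -1.42 with CD3 and CD8 scaling. Its members higher under the 3 other scalings numbered 2, 2 and 0, and those lower 0, 0 and 4. The last of these scalings called 4910 of all 18817 genes lower. Slamf7 differed by 3.87 ± 0.80 (adjusted p = 0.00283), a call lost with CD3 and CD8 scaling, and Cd28, the main costimulatory receptor, overlapped, with 105, 312 and 398 in naive brain and 326, 103 and 185 in naive blood (adjusted p = 0.687), and was called lower with CD3 and CD8 scaling (-1.74, adjusted p = 0.026).

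MHC class I genes, which T cells themselves express, were higher in naive brain in 11 of 12 cases, with 0 lower and a median of 2.87 (0.83 when scaled to the CD3 and CD8 genes). Under the 3 other scalings 5, 4 and 1 were higher and 0, 1 and 1 lower. Microglia express class I genes too, and the microglial share of reads given above applies to them. H2-D1, a classical class I heavy chain, rose to 4614, 12383 and 12586 scaled CPM in naive brain, against 674, 468 and 909.5 in naive blood (3.76 ± 0.35, adjusted p = 1.96e-07), and held. H2-K1, the other classical chain here, differed by 1.86 ± 0.25 (adjusted p = 3.81e-05), and B2m, the invariant chain, by 1.10 ± 0.29 (adjusted p = 0.0166), and both turned with scaling. B2m changed to -1.0 with quantile normalization, -0.11 with unscaled CPM and -1.0 with CD3 and CD8 scaling, and H2-K1 to -0.14 and -0.24 with the first and last of these. The B2m difference was 0.65 without naive blood replicate 2 (adjusted p = 0.0159), and its call was lost without naive brain replicate 1 or 3 (adjusted p = 0.0957 and 0.0563). Class I genes are close paralogs, so reads may have been shared among them. Of 18 type I interferon response genes 6 were higher and 0 lower, with a median of 2.10 (0.05 when scaled to the CD3 and CD8 genes), and 3 were higher without naive brain replicate 3 or naive blood replicate 3. Under the 3 other scalings 2, 1 and 2 were higher and 0, 0 and 1 lower. Bst2, which tethers budding virus, rose to 231, 529 and 448 in naive brain, against 1.08, 3.84 and 28.2 in naive blood (5.84 ± 0.86, adjusted p = 0.000112), and held. Isg15, a ubiquitin-like protein gene, had no read in any naive blood library and 2.71, 20.4 and 80.5 scaled CPM in naive brain (adjusted p = 0.0204), and was not called with quantile normalization or without naive brain replicate 3 or naive blood replicate 2 or 3. Irf7 differed by 3.36 ± 0.87 (adjusted p = 0.016), a call lost with unscaled CPM, quantile normalization and CD3 and CD8 scaling and without naive brain replicate 2 or 3 or naive blood replicate 3.

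Among metabolic and housekeeping lists, glycolysis and the respiratory chain had 1 gene each that was called under all 5 scalings. Of 16 glycolysis genes 10 were higher and 0 lower (median 2.88, 0.82 when scaled to the CD3 and CD8 genes), but 6 without naive brain replicate 1, 5 without naive brain replicate 3 and 4, 3 and 1 under the 3 other scalings. Gapdh, a central glycolytic enzyme, rose to 795, 1482 and 2257 scaled CPM in naive brain, against 55.2, 115 and 62.7 in naive blood (4.22 ± 0.49, adjusted p = 4.53e-06), and held. Of 19 respiratory chain genes 8 were higher and 0 lower, or 5 without naive brain replicate 2 and 4 without naive brain replicate 3, with a median of 1.58 that turned to -0.52 with CD3 and CD8 scaling. Its calls became 2, 1 and 1 higher and 4, 3 and 8 lower under the 3 other scalings. Uqcrc1, a core subunit of complex III, rose by 5.24 ± 0.67 (adjusted p = 1.73e-05) and held, while Ndufa1, of complex I, overlapped with 280.1, 269 and 376 in naive brain and 323, 218 and 479 in naive blood (-0.08 ± 0.46, adjusted p = 0.908). Ndufa1 was called lower with unscaled CPM (adjusted p = 0.0437), quantile normalization (-1.50, adjusted p = 0.033) and CD3 and CD8 scaling (-2.18, adjusted p = 0.00924). Of 20 cytosolic ribosomal protein genes 9 were higher and 0 lower, with a median of 0.95 that turned to -0.27 with unscaled CPM, -0.65 with quantile normalization and -1.15 with CD3 and CD8 scaling. The direction of its calls turned as well, with 1, 0 and 0 higher and 4, 7 and 13 lower under the 3 other scalings. Rpl5 measured 871, 464 and 732 in naive brain and 1130.2, 696 and 861 in naive blood, not called as deposited (-0.40 ± 0.37, adjusted p = 0.461) and called lower under those 3 scalings (-1.61, -1.88 and -2.50), while Rps3 measured 2299.9, 2424 and 2896 in naive brain and 474, 352 and 722 in naive blood (2.35 ± 0.34, adjusted p = 7.54e-05), a call lost with quantile normalization and CD3 and CD8 scaling. Of 18 cell cycle genes 2 were higher and 0 lower, a count of 0 without naive brain replicate 2 or 3 and 1 without naive brain replicate 1 or naive blood replicate 2 or 3, with a median of 1.05 that turned to -0.06 with unscaled CPM and -0.84 with CD3 and CD8 scaling. Under the 3 other scalings 0 were higher and 0, 0 and 1 lower. Mki67, a marker of dividing cells, measured 14.3, 79.5 and 496 in naive brain and 23.3, 55.4 and 36.3 in naive blood (adjusted p = 0.38).

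**Figure D4:**
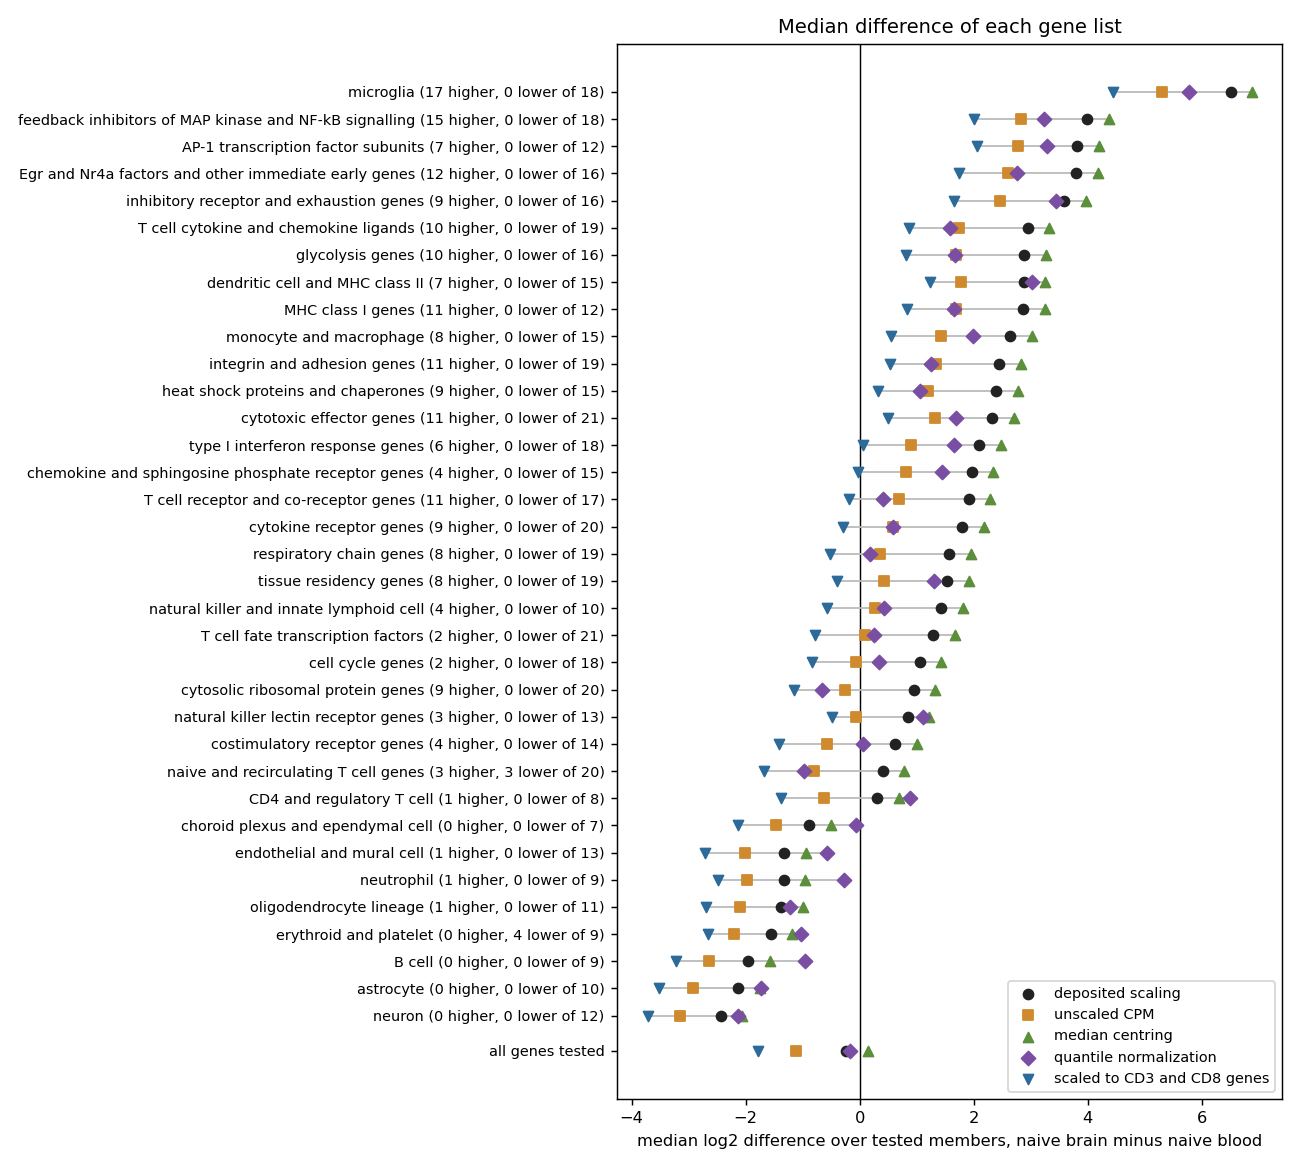
Each row is a gene list, named with its number of members called higher and lower among those tested, and each symbol is the list's median log2 difference, naive brain minus naive blood, under 1 of 5 scalings. The bottom row gives all genes tested, from -1.78 to 0.14, and gamma delta T cell genes, of which 2 were tested, are left out. Lists above 0 under every scaling include the microglial, feedback inhibitor, AP-1, Egr and Nr4a, inhibitory receptor, cytotoxic, cytokine and chemokine, integrin and MHC class I lists. Lists that change sign include the naive and recirculating, ribosomal protein, T cell receptor, tissue residency, natural killer lectin, cytokine receptor and chemokine receptor lists.

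Microglial genes had the highest median of all lists. Of 18 microglial marker genes 17 were higher and 0 lower in naive brain, 16 of them under all 5 scalings, with a median of 6.51 (4.44 when scaled to the CD3 and CD8 genes). C1qb, a chain of complement C1q, had the largest log2 difference of the genes tested, with 4859, 3989 and 12572 scaled CPM in naive brain and 21.6, 17.6 and 14.1 in naive blood (8.40 ± 0.48, adjusted p = 2.67e-10), and it lies on chromosome 4 at 136880129 to 136886187. P2ry12, a purine receptor that defines resting microglia, measured 1329, 762 and 2048 in naive brain and 8.65, 3.84 and 4.58 in naive blood (7.64 ± 0.64, adjusted p = 6.25e-08). Tmem119 measured 538, 851 and 2447 in naive brain and 8.65, 23.6 and 1.76 in naive blood (6.90 ± 0.76, adjusted p = 2.5e-06), and Cst3, a protease inhibitor gene, averaged 33399 ± 21413 scaled CPM in naive brain and 234 ± 59.5 in naive blood (SD, n = 3 each), a log2 difference of 6.98 ± 0.35 (adjusted p = 3.77e-11). C1qa, C1qc, Olfml3 and Siglech rose by 8.31, 7.11, 7.81 and 7.21 (adjusted p from 1.51e-08 to 2.46e-07). All of these microglial genes held. Sall1, a transcription factor of microglia, missed the threshold with 55.4, 21.4 and 67 in naive brain and 3.79, 12.6 and 0.704 in naive blood (adjusted p = 0.0552), and passed with median centring (adjusted p = 0.0244) and without naive blood replicate 2 (adjusted p = 0.0488).

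The microglial list made up 2.24% to 5.32% of the reads in naive brain libraries and 0.0732% to 0.109% in naive blood libraries. By comparison the T cell receptor and co-receptor list made up 0.765% to 1.0% in naive brain and 0.445% to 0.590% in naive blood. Monocyte and macrophage genes made up 0.359% to 0.449% in naive brain and 0.0631% to 0.175% in naive blood, and 8 of 15 were higher and 0 lower, or 5 higher without naive brain replicate 3. The 3 other scalings gave 5, 4 and 3 higher and 2, 0 and 3 lower. Lyz2, a lysozyme gene of myeloid cells, measured 848, 1923 and 624 scaled CPM in naive brain and 167, 6.58 and 23.2 in naive blood (5.0 ± 0.78, adjusted p = 0.0002), and the macrophage lysosomal gene Cd68 rose by 4.81 ± 0.54 (adjusted p = 3.34e-06). Both held. Ccr2, which marks inflammatory monocytes, did not pass, with 78.3, 34.3 and 91.8 in naive brain and 15.7, 2.19 and 29.6 in naive blood (adjusted p = 0.0923, and 0.0498 with median centring).

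Among 15 dendritic cell and MHC class II genes 7 were higher and 0 lower, or 5, 6 and 5 higher and 0 lower under the 3 other scalings. H2-Aa, H2-Ab1 and H2-Eb1, chains of the class II molecules that present antigen to CD4 cells, rose by 6.69 ± 0.75, 6.25 ± 0.57 and 5.95 ± 0.71, and Cd74, their chaperone, by 5.29 ± 0.47 (adjusted p from 1.19e-07 to 7.12e-06). H2-Aa measured 818, 1188 and 974 in naive brain and 5.95, 2.19 and 38 in naive blood, and these 4 genes held. The list made up 0.412% to 0.583% of the reads in naive brain and 0.0296% to 0.0518% in naive blood. Of 10 natural killer and innate lymphoid genes 4 were higher and 0 lower, or 3, 2 and 2 higher and 0, 0 and 1 lower under the 3 other scalings, among them Tyrobp (6.19 ± 0.67) and Fcer1g (4.91 ± 0.53), adaptor genes that microglia express too (adjusted p = 2.12e-06 and 1.83e-06). Ncr1, which defines natural killer cells, was not tested, with 0, 0.861 and 0.894 scaled CPM in naive brain and 0, 2.19 and 5.63 in naive blood.

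As deposited, the B cell, astrocyte, neuron, choroid plexus and gamma delta T cell lists had 0 genes called in either direction. The CD4 and regulatory T cell, neutrophil, endothelial and oligodendrocyte lists had 1 each, all higher. The neuron list had 3 lower without naive blood replicate 1. With unscaled CPM, which lowered the median of all genes to -1.12, 1 B cell, 3 astrocyte and 2 neuron genes were called lower. Quantile normalization called 0 genes of these 3 lists lower. With CD3 and CD8 scaling, which lowered the median of all genes to -1.78, 4 B cell, 6 astrocyte and 6 neuron genes were called lower. The called gene of the CD4 list was Ctla4, given above. The neutrophil call was lost without naive brain replicate 3, the endothelial call with any 1 of the 6 libraries left out, and the oligodendrocyte call with any library left out other than naive blood replicate 1. The neuron list made up 0.000537% to 0.00329% of the reads in naive brain and 0.00671% to 0.138% in naive blood, and the astrocyte list 0.00402% to 0.00798% in naive brain and 0.0123% to 0.0897% in naive blood, with naive blood replicate 2 at the top of both. Foxp3, the regulator of regulatory T cells, measured 10.8, 29.9 and 26.6 scaled CPM in naive brain and 27, 22.5 and 2.11 in naive blood (adjusted p = 0.624). Ms4a1, which defines B cells, measured 0, 1.29 and 1.09 in naive brain and 1.62, 7.68 and 13 in naive blood (adjusted p = 0.169), and was called lower with CD3 and CD8 scaling (adjusted p = 0.0355).

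**Figure D5:**
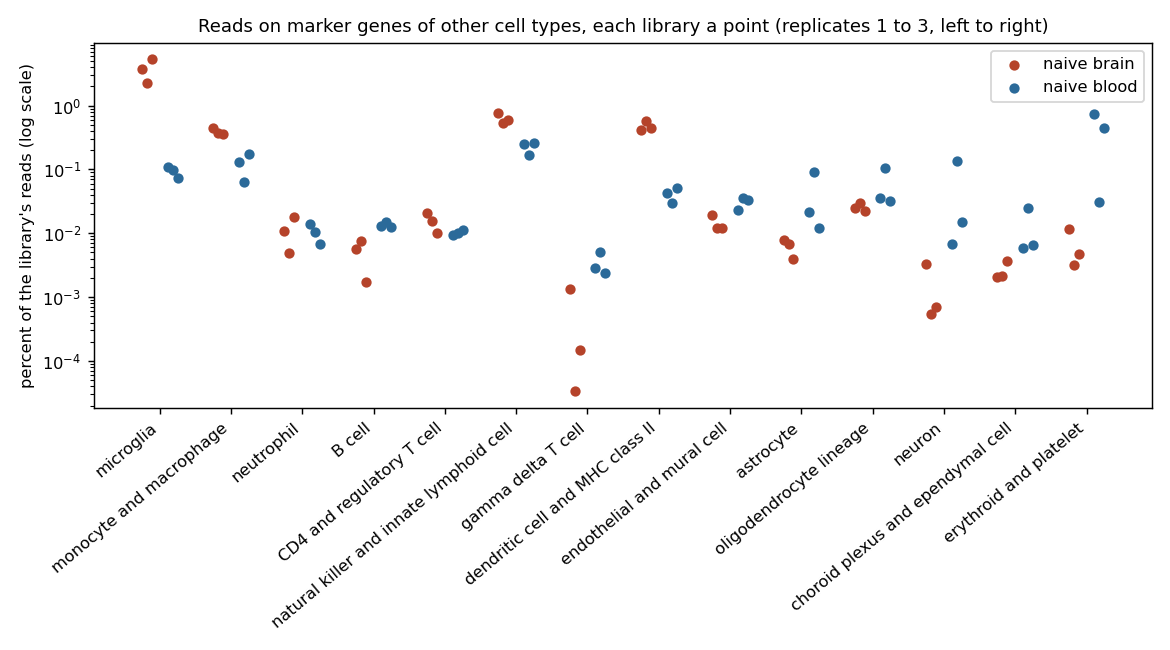
Points give the share of a library's reads on the marker genes of 14 other cell types, on a log scale, with naive brain libraries in red on the left of each pair and naive blood libraries in blue on the right. Microglial reads make up 2.24% to 5.32% of naive brain libraries against 0.0732% to 0.109% of naive blood libraries. Neuron, astrocyte, oligodendrocyte, endothelial, choroid plexus, B cell, gamma delta T cell and erythroid reads are all higher in every naive blood library than in any naive brain library.

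Few abundant genes were lower in naive brain. The largest difference belonged to the haemoglobin genes of red cells. Hba-a1, an alpha globin gene, fell to 22.1, 3.45 and 0.894 scaled CPM in naive brain, against 1863, 43.9 and 1167 in naive blood (-6.31 ± 1.10, adjusted p = 0.000678), and Hba-a2 had the same counts in every library, so their reads may belong to either copy. Hbb-bs, a beta globin gene that shares its counts with Hbb-b1, measured 31, 2.58 and 6.45 in naive brain and 1646, 50.5 and 763 in naive blood (-5.40 ± 1.01, adjusted p = 0.00126). Hbb-bt, a further beta globin gene that shares its counts with Hbb-b2, had a log2 difference of -5.01 ± 1.45 (adjusted p = 0.0299), a call lost with quantile normalization and without naive brain replicate 1 or naive blood replicate 1 or 3. Erythroid and platelet genes made up 0.00320% to 0.0116% of the reads in naive brain and 0.0305% to 0.737% in naive blood, with 4 of 9 genes lower and 0 higher. Naive blood replicate 2 held far fewer globin reads than the other naive blood libraries.

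Several other lower genes were neural genes whose call was lost without naive blood replicate 2. Such a loss was common, since 66 of the 241 lower calls remained without that library. Gpm6a, a neuronal membrane glycoprotein gene, measured 1.94, 0.215 and 0.199 scaled CPM in naive brain and 18.4, 244 and 14.4 in naive blood (-4.69 ± 1.21, adjusted p = 0.0152), and -3.41 without naive blood replicate 2, when it was not called (adjusted p = 0.0928). The same loss befell Gabrd, a GABA receptor subunit gene, Cdh2, N-cadherin, and Mlc1, an astrocyte membrane protein gene, which differed by -4.12 ± 1.19, -4.10 ± 1.13 and -4.09 ± 1.15 with that library (adjusted p = 0.0297, 0.0227 and 0.0254) and by -3.23, -3.43 and -3.33 without it (adjusted p = 0.155, 0.105 and 0.128). Gabrd was also lost without naive brain replicate 2 or 3 or naive blood replicate 1, Cdh2 and Mlc1 without naive brain replicate 2 or 3, and all 3 with quantile normalization.

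Serpinb1a, Rhpn1, Creb3l3 and Fam81a were lower and held. Serpinb1a, an inhibitor of neutrophil proteases, measured 0.775, 0.215 and 0.0993 scaled CPM in naive brain and 57.9, 23.6 and 23.9 in naive blood (-4.63 ± 1.08, adjusted p = 0.00752). Rhpn1 measured 0, 1.18 and 0 in naive brain and 29.7, 44.4 and 13.4 in naive blood (-4.39 ± 1.09, adjusted p = 0.0117). Creb3l3, a liver transcription factor gene, measured 0.387, 0 and 0.497 in naive brain and 41.6, 20.8 and 15.8 in naive blood (-4.29 ± 1.07, adjusted p = 0.0119), and Fam81a had a log2 difference of -4.21 ± 1.05 (adjusted p = 0.0122). All 4 lay at or near the counting limit in naive brain. Odour, pheromone and taste receptor genes made up 12 of the 241 lower genes (4.98%) and 0 of the 1830 higher genes, against 328 of all 18817 tested (1.74%). Predicted loci made up 32 of the lower genes (13.3%) and 46 of the higher genes (2.51%), against 1945 of all tested (10.3%), so their share among the lower genes lay near that of all genes.

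In the post-stroke brain libraries, which enter no test here, Ccl5 and Cxcr6 varied with the library. Ccl5 measured 4094, 176 and 598 scaled CPM at day 3 and 4772, 2859 and 3429.6 at day 30. Cxcr6 measured 209.8, 11.4 and 69.6 at day 3 and 3651, 461 and 540.1 at day 30. In scaled CPM, replicate 1 was highest at both times for both genes. The scaling multiplied unscaled CPM by 1.61, 0.527 and 0.679 in day 3 replicates 1 to 3. At day 30 it did so by 1.55, 0.791 and 0.880. Without that scaling replicate 1 was not highest for Ccl5 at day 30.

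Exons of several named genes overlap those of a neighbour in the GENCODE vM21 annotation of GRCm38, and the strand setting of the counting is not given, so their reads cannot be separated. Such pairs include Cd3e with Gm48719, Ctsw with Fibp, Junb with Prdx2, Ppp1r15a with Tulp2, Dusp1 with Ergic1, Gapdh with Iffo1, P2ry12 with Med12l, Bhlhe40 with 0610040F04Rik, Litaf with Snn and Irf7 with Phrf1. On the same strand, Ifng overlaps Gm49751, Lck the microRNA gene Mir8119 and Cd74 the microRNA gene Mir5107.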

How the data were processed

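CD8 T cells sorted from naive mouse brain and naive mouse blood were profiled by RNA-seq after amplification with SMART-Seq v4, per the labels' protocols. The submitters' processing notes name FastQC 0.11.2, STAR 2.5.3a, featureCounts of Subread, edgeR and the mm10 genome; no annotation, strand setting or read filter is named there. The authors deposited 1 table for all 12 libraries, and its values are a signal, gene counts expressed as CPM of a scaled library size (scaled CPM). Dividing each column by the value of 1 read gave whole reads for 100% of values within 1e-06 reads, and the scaling multiplied unscaled CPM by 0.606 to 2.09 in the 6 libraries compared. The planned tests took the values for CPM without such scaling. The test was kept, with unscaled CPM as an alternative, under which 599 genes were higher and 1543 lower in naive brain. Column names match the sample titles, and 0 columns were left unmapped.

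Values were taken as log2(value + 1), and genes with at least 1 in at least 3 of the 6 libraries were tested with limma 3.58.1 (R 4.3.3, moderated statistics with a mean-variance trend, 2-sided), with Benjamini-Hochberg adjustment over all 18817 genes and a threshold of 0.05. Differences are log2, naive brain minus naive blood, with their standard errors, and understate the change of low genes. Total reads ranged from 1104490 to 21014171, and limits of 3 reads cover counting error only, since reads without molecular identifiers are not independent molecules. The procedure was tested on simulated counts with known changes. Alternatives were other pseudocounts, filters and scalings, all 12 libraries, library quality weights, a replicate block, edgeR 4.0.16 and DESeq2 1.42.0 on the whole reads, thinning to 1104490 reads and leaving out each library.

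Members and gene lists were chosen with earlier results of these data known. Named genes are the 14 in each direction with the largest differences among non-overlapping genes with a mean of at least 10 in the higher group, leaving out predicted loci, receptor segments and pseudogenes, with the first 3 members of each list and up to 5 more with the largest differences that passed. Cd3d, Cd3g, Satb1, Lef1, Tcf7, Gzma, Sall1 and the genes under other observations other than the sex-linked ones were named after their values were seen. T cell receptor constant genes and a few other list members are not analysed or not reported here. Positions come from GENCODE vM21 and promoters from RefSeq, both on GRCm38. Of 23937 genes, 1783 had a read in the 6 libraries compared and the same counts there as another gene, among them 86 of the 18817 tested. No pair of libraries had equal counts in more than 2.4% of genes, so none was treated as a duplicate.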

Additional observations from a re-analysis of the deposited data

How the results depend on the processing

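The number of genes called, 2071 as deposited with 1830 higher and 241 lower in naive brain, moved by more than 1.5 times under several settings, and the cause was not tested. Quantile normalization gave 698 genes with 520 higher, and unscaled CPM 599 higher and 1543 lower. Library quality weights gave 3842 genes with 1318 lower, and DESeq2 on the whole reads 3143 with 1514 lower, while edgeR gave 1369 with 81 lower. The lower count was 51 without a filter, 116 with median centring, and 91 and 132 with pseudocounts of 0.1 and 5. Scaling to the CD3 and CD8 genes, chosen after seeing the data, gave 5209 genes with 299 higher and 4910 lower. Leaving out 1 library gave 962 to 2074 genes, 940 to 1631 higher and 22 to 543 lower. The lowest counts came without naive brain replicate 3 (22 lower) and without naive brain replicate 2 (24 lower), and the highest lower count without naive brain replicate 1 (543). Without naive blood replicates 2 and 3 in turn, 77 and 74 genes were lower. Leaving out genes of shared counts, also chosen after seeing the data, gave 2047 genes with 1817 higher and 230 lower.

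Same-numbered naive brain and naive blood libraries did not deviate together, with correlations of -0.04, -0.02 and 0.03 of their deviations from the group means. With 3 libraries per group such correlations cannot decide whether same-numbered samples share a mouse, and the labels do not state it. A replicate block gave 2227 genes with 2040 higher and 187 lower, and changed the call of none of 179 genes followed by name. Of these 179 genes, 146 were called as deposited and 33 were not. None of the called genes changed direction under the pseudocounts, filters, median centring, tools, thinning, weights, block, all 12 libraries or left-out libraries, nor did any other gene that one of those settings called. Some of the genes called neither as deposited nor under the setting did change sign there, 1 with a pseudocount of 5, 3 with median centring, 4 with DESeq2, 3 without naive brain replicate 2, naive brain replicate 3 or naive blood replicate 3, and 4 without naive blood replicate 2. Among genes called as deposited or under the setting, direction changed with quantile normalization for B2m (-1.0) and H2-K1 (-0.14) and with unscaled CPM for B2m (-0.11), and 8 genes called in neither also turned under each of these settings. With CD3 and CD8 scaling it changed for 10 genes called as deposited, namely Cd8b1 (-0.18), Klf3 (-0.12), Gpr183 (-0.21), Cd69 (-0.43), Il2rg (-0.36), Tnfaip3 (-0.44), B2m (-1.0), H2-K1 (-0.24), Rpl3 (-0.57) and Cd3g (-0.28), for 5 called under that scaling alone, namely S1pr1 (-1.96), Itga4 (-1.29), Cd28 (-1.74), Cd3d (-1.37) and Tcf7 (-1.68), and for 9 called in neither. Cd8b1, Cd3d and Cd3g are among the genes that set that scaling. Of the 33 genes not called as deposited, 8 were called with unscaled CPM, 5 with quantile normalization and 16 with CD3 and CD8 scaling, all of them lower in naive brain, and 4 with median centring, all higher. Depth limits low genes in naive blood, where 3 reads equal 1.06 to 1.65 scaled CPM.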

Other observations

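Small calcium-binding protein genes of effector and memory T cells were among the called genes not yet described. S100a4 measured 910.1, 483 and 748 scaled CPM in naive brain and 31.9, 0.549 and 2.46 in naive blood (6.94 ± 0.88, limma adjusted p = 1.48e-05), and S100a6 rose by 5.03 ± 0.45 (adjusted p = 1.19e-07). Actin regulators rose too, with Coro1a, which bundles actin at the leading edge of leukocytes, at 1819.5, 3704 and 4405 in naive brain and 66.5, 160.2 and 162 in naive blood (4.68 ± 0.44, adjusted p = 2.46e-07), Pfn1 differing by 4.33 ± 0.37 and Actb by 3.39 ± 0.29 (adjusted p = 6.89e-08 and 6.89e-08). Coro1a overlaps Bola2 on the other strand.

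Hist1h1e, a linker histone gene, measured 55.4, 109 and 221 in naive brain and 2.16, 1.65 and 0 in naive blood (5.78 ± 1.02, adjusted p = 0.000763). H2-Q6, a nonclassical class I gene with the same counts as H2-Q8 in every library, rose by 6.33 ± 0.78 (adjusted p = 1.1e-05). Sparc, a matrix protein gene that microglia express, measured 1069, 1472 and 3602 in naive brain and 11.9, 63.1 and 9.15 in naive blood (6.46 ± 0.65, adjusted p = 7.08e-07), and the lysosomal protease gene Ctsd rose by 5.96 ± 0.50 (adjusted p = 6.26e-08). Lars2, a mitochondrial tRNA synthetase gene, differed by 5.16 ± 0.38 and Rn45s, the ribosomal RNA precursor, by 3.27 ± 0.20 (adjusted p = 1.08e-08 and 6.08e-10), with Rn45s at 24277, 20634 and 25512 in naive brain and 2359, 2783 and 2146 in naive blood. All genes of these paragraphs were called under all 5 scalings and with each library left out in turn.

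Ryr3, a calcium channel gene of muscle and neurons, was lower, with 39.1, 5.06 and 0.993 scaled CPM in naive brain and 108, 152 and 129.5 in naive blood (-4.04 ± 0.96, adjusted p = 0.00854). Mroh2a measured 118, 24.3 and 12.1 in naive brain and 174, 250.1 and 334 in naive blood (-2.85 ± 0.73, adjusted p = 0.0148), a call lost without naive brain replicate 3 or naive blood replicate 3.

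Genes of the Y chromosome were read in all 6 libraries, with Ddx3y at 112, 117 and 131 scaled CPM in naive brain and 118, 127 and 145 in naive blood and Eif2s3y at 185, 128 and 84.1 in naive brain and 70.8, 30.2 and 72.5 in naive blood. Xist, expressed from the inactive X chromosome of female cells, measured 4.26, 0 and 1.79 in naive brain and 17.3, 13.2 and 11.6 in naive blood.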
